A study of Homo sapiens with 14 samples.

Results

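The proteasome and immunoproteasome subunit genes were taken as every gene whose symbol is PSMA, PSMB, PSMC, PSMD, PSME or PSMF followed by a number only. This gave 44 genes of the 24489 rows in each expression table, of which 5 are immunoproteasome members (PSMB8, PSMB9, PSMB10, PSME1 and PSME2) and 39 are other members. All libraries came from U251MG, a long-established line grown from a human glioblastoma and labelled WT for genotype throughout: 12 RNA-seq libraries, and 2 ATAC-seq libraries (radioresistant and control), in which Tn5 insertion maps open chromatin. The RNA groups held 3 libraries each: radioresistant cells, made by X-rays at 2 Gy a day for 30 fractions (60 Gy in all), control cells labelled only as Control, radioresistant cells with the hairpin shIFI16, and radioresistant cells with the hairpin shNC. The series is about IFI16, a nuclear DNA sensor of the interferon response, in radioresistance. The labels give 1 hairpin against IFI16, no rescue and no clone or culture of origin for a library, so the p-values rest on the spread among these libraries alone, and that spread may be technical.

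The proteasome is the protease that degrades proteins tagged with ubiquitin. Its 20S core is a barrel of alpha rings (PSMA genes) and beta rings (PSMB genes), in which PSMB5, PSMB6 and PSMB7 carry the proteolytic sites, and it is capped by the 19S particle (PSMC ATPases and PSMD subunits) or by the PA28 activator made of PSME1 and PSME2. Interferons are known to induce PSMB8, PSMB9 and PSMB10, which take the places of PSMB5, PSMB6 and PSMB7 in newly built cores, and to induce PSME1 and PSME2. The resulting immunoproteasome is best known for cutting peptides that fit class I antigen presentation, and it is usually low in brain-derived cells without interferon.

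The expression columns carry codes, and their groups were inferred: the codes of the first table follow the naming of the ATAC-seq pair, and those of the second were read as shNC and shIFI16. IFI16 was at 7.68, 7.90 and 6.71 TPM (transcripts per 1000000 transcripts) in the columns read as shIFI16, against 125, 140 and 127 TPM in those read as shNC, while the radioresistant and control columns have no such check. IFI16 was at 250.8, 309 and 243 TPM in radioresistant cells, against 70.3, 71.1 and 49.6 TPM in control cells. The deposited values were TPM, so sequencing depth is unknown, and 12380 to 13036 genes a library reached 1 TPM. Of 7 glioma and astrocyte markers, 7 fell in radioresistant cells, where 27.0% of all genes tested fell, and 6 of 7 were still at 1 TPM or more. Immune cells could also hold immunoproteasome RNA: the markers CD3E and AIF1 were at 0 TPM in all 12 libraries, and PTPRC, which marks leukocytes, averaged at most 0.0381 TPM in a group. Of 12 markers of endothelial, epithelial, neuronal and oligodendrocyte cells, 4 were high enough to test, and PECAM1, EPCAM, RBFOX3 and MOG averaged at most 0.121 TPM in a group. Of the 4 tested, CDH5 (endothelial) fell in radioresistant cells, at 0.674 TPM against 7.57 TPM in control cells, and rose by 1.28 with shIFI16. KRT18 (epithelial) rose by 0.65 with shIFI16, SYT1 (neuronal) fell by 0.89 in radioresistant cells and by 0.72 with shIFI16, and SNAP25 passed in neither comparison. The summed level of 9 immune markers was 19.8 to 24.5 TPM in radioresistant and 16 to 21.3 TPM in control libraries. It was 14.3 to 18.1 TPM in shIFI16 and 37.8 to 40.6 TPM in shNC libraries. Of these 9 markers, 2 averaged 1 TPM or more in radioresistant cells, and 1, CD68, did in each other group. The marker beside CD68 was too low to test in radioresistant against control cells, where 1 of the 9 was tested. Its part in the result was not tested. CD68 made up most of the sum, with a mean of 20.3 of 22.7 TPM in radioresistant cells.

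Sequence around the start sites is shown first, because 4 of the 5 immunoproteasome genes carry the same letters there. RefSeq promoter entries (build GRCh38.p14; 250 bases before to 50 after each start site) were at hand for 39 of the 44 members. The core of the interferon-stimulated response element, GAAANNGAA on either strand, was present in 4 of the 5 immunoproteasome genes and in 3 of 34 other members, against 9.86% of 27305 genes. In PSMB8, PSMB10, PSME1 and PSME2 the match was the same 9 letters, GAAAGCGAA, within 30 bases of the start site. That exact string occurred in 90 genes (0.33%), and in 24 genes (0.0879%) within 30 bases of a start site; it was singled out after it had been seen in these promoters. It was in no other member. The 100 bases from 80 before to 19 after these start sites are shown 5′ to 3′ on the strand of the gene, with matches of the response element core in capitals (TTCGCTTTC is the same core read on the opposite strand). The capitals nearer the left end of PSMB8 mark a match of the gamma-activated site, TTCNNNGAA. PSMC2 is shown as the other member with a core close to its start, PSMB9 as the immunoproteasome gene with none in its window, and TAP1 for the stretch that lies before PSMB9.
PSMB8: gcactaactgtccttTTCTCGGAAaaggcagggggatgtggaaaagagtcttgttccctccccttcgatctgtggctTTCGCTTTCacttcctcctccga
PSMB10: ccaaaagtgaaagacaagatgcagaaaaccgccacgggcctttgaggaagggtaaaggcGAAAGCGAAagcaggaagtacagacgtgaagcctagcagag
PSME1: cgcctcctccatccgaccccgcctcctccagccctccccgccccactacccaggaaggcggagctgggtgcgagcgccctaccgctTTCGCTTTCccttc
PSME2: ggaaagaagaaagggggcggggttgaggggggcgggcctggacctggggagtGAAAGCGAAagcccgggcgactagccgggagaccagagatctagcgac
PSMC2: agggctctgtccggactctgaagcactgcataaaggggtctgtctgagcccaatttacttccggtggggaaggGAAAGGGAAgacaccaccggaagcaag
PSMB9: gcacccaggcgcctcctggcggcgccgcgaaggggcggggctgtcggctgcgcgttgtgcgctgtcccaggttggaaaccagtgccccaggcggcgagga
TAP1: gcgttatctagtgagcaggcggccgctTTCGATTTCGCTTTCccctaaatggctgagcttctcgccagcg
These stretches lie at chr6:32844028-32844127 (PSMB8, minus strand), chr16:67936831-67936930 (PSMB10, minus), chr14:24136114-24136213 (PSME1, plus), chr14:24146591-24146690 (PSME2, minus), chr7:103347563-103347662 (PSMC2, plus), chr6:32854112-32854211 (PSMB9, plus) and chr6:32853795-32853864 (TAP1, minus). Counted from 0 at the start site, the core spanned -3 to 5 in PSMB8, -21 to -13 in PSMB10, 6 to 14 in PSME1, -28 to -20 in PSME2 and -7 to 1 in PSMC2. The PSMB8 match belongs to 1 of its 2 start sites. TAP1, which encodes a chain of the peptide transporter, runs in the opposite direction from a start site 488 bases from that of PSMB9, and 2 overlapping cores in its promoter lie 355 to 369 bases before the PSMB9 start. A gamma-activated site was present in 1 of 5 immunoproteasome genes and 7 of 34 other members (9.38% of genes). The antioxidant response element TGACNNNGC was present in 3 of 5 and 10 of 34 (16.1% of genes), and CCAAT in 1 of 5 and 18 of 34 (39.7% of genes). A match describes letters only and shows no binding.

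All 5 immunoproteasome genes rose in radioresistant cells, where 16.9% of all genes tested rose, with larger changes of PSMB9 and PSMB8 than of the other 3. PSMB9, the inducible subunit that replaces PSMB6, was at 245, 168 and 142 TPM in radioresistant libraries, against 1.3, 2.12 and 1.26 TPM in control libraries. Every radioresistant value was far above every control value, and the ratio of the means was 118. On the log2(TPM + 1) scale used for all tests, which understates changes of low genes, PSMB9 rose by 6.16 (SE 0.20, limma, adjusted p = 1.21e-08), the sixth highest change of 13127 genes tested. PSMB8, which replaces PSMB5, was at 367, 337 and 300 TPM in radioresistant libraries, against 52.1, 45.9 and 48.1 TPM in control libraries. The groups did not overlap, and PSMB8 rose by 2.75 (SE 0.11, adjusted p = 4.71e-08; rank 79).

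PSME2, the beta chain of the PA28 activator, was at 517, 461 and 438 TPM in radioresistant libraries and 210, 198 and 187 TPM in control libraries, a rise of 1.25 (SE 0.11, limma, adjusted p = 9.96e-06; rank 461). PSME1, the alpha chain of the same activator, was at 291, 286 and 240 TPM in radioresistant libraries and 208, 194 and 150 TPM in control libraries, a rise of 0.57 (SE 0.14, adjusted p = 0.0074). PSMB10, which replaces PSMB7, was at 83.1, 62.7 and 64.0 TPM in radioresistant libraries and 33.4, 50.1 and 51.3 TPM in control libraries, a rise of 0.64 (SE 0.18, adjusted p = 0.014). The groups overlapped for none of these 3 genes, but the gap of PSMB10 was narrow, and without radioresistant replicate 1 it missed the threshold (0.51, adjusted p = 0.0605). In bulk RNA, fewer cells with a transcript and less of it per cell cannot be told apart. The antisense gene PSMB8-AS1, which overlaps PSMB8, was at 18.3, 19.2 and 13.6 TPM in radioresistant libraries and 2.54, 2.46 and 2.23 TPM in control libraries (2.39, adjusted p = 1.46e-06); use of strand in counting is not given in the sources used here, so the share of reads each of the pair took cannot be told apart. PSME2 has 6 named pseudogenes in RefSeq, none of which had a row of its own.

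**Figure D1:**
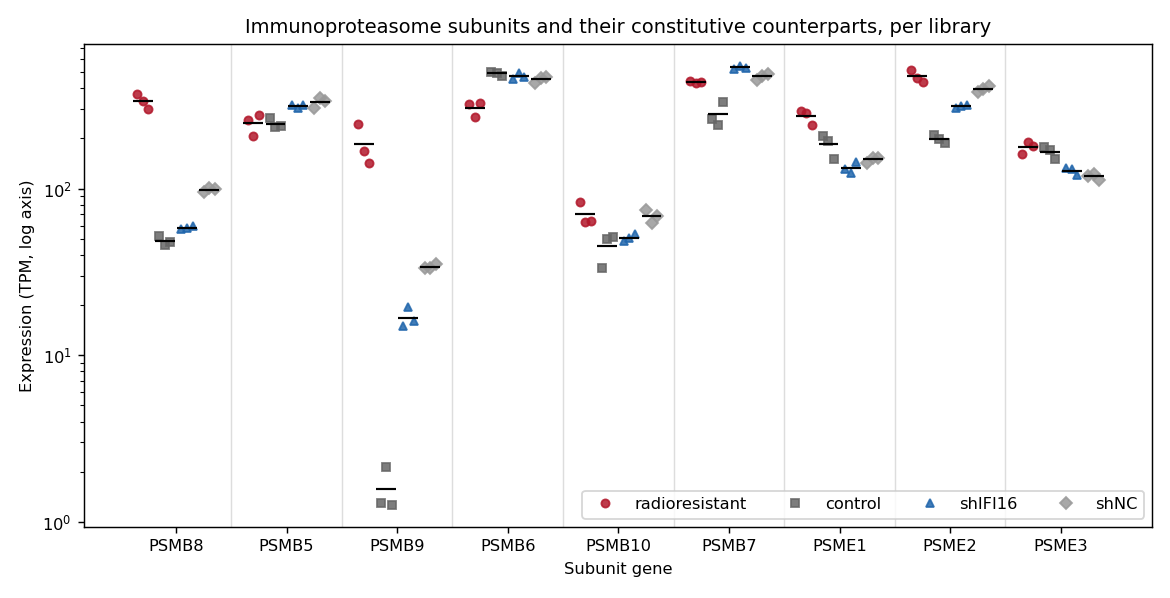
Expression of the 5 immunoproteasome genes and of PSMB5, PSMB6, PSMB7 and PSME3 in each of the 12 libraries, in TPM on a log axis; points are libraries and black lines are group means (n = 3). PSMB9 spans the widest range, with 142 to 245 TPM in radioresistant and 1.26 to 2.12 TPM in control libraries, while PSMB5 and PSME3 keep to a narrow band.

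The subunits that these genes replace did not move as 1 group. PSMB5, the constitutive chymotrypsin-like subunit, was at 256, 208 and 278 TPM in radioresistant libraries and 264, 234 and 236 TPM in control libraries. These ranges overlapped, and the change was 0.01 with a 95% interval of -0.27 to 0.28 (adjusted p = 0.971, limma). PSMB6, the caspase-like subunit, was at 321, 269 and 328 TPM in radioresistant libraries and 501, 497 and 474 TPM in control libraries, and fell by 0.69 (SE 0.11, adjusted p = 0.000636). PSMB7, the trypsin-like subunit, was at 439, 429 and 439 TPM in radioresistant libraries and 263, 240 and 333 TPM in control libraries, and rose by 0.66 (SE 0.13, adjusted p = 0.00202). PSMB6 and PSMB7 thus moved in opposite directions by similar amounts, each without overlap between groups.

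Because TPM is scaled to length, each inducible subunit could be set against its constitutive counterpart as a share of the summed TPM of the pair, a description of RNA with no test. PSMB8 was 57.5 ± 5.07% of its pair with PSMB5 in radioresistant cells and 16.6 ± 0.291% in control cells (SD, n = 3 each). PSMB9 was 37.3 ± 6.63% of its pair with PSMB6 in radioresistant cells and 0.317 ± 0.0939% in control cells. PSMB10 was 13.8 ± 1.82% of its pair with PSMB7 in radioresistant cells and 14.0 ± 3.04% in control cells. The share of PSMB10 therefore differed by less than the spread between libraries, as both genes of that pair were higher. Over all 6 catalytic genes, the inducible subunits made up 40.6, 38.5 and 32.6% of the TPM in radioresistant libraries and 7.78, 9.17 and 8.80% in control libraries. Their sum was 590 ± 96.6 TPM in radioresistant cells and 95.2 ± 7.41 TPM in control cells, while the 3 constitutive genes summed to 989 ± 73.5 TPM and 1014 ± 37.8 TPM.

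**Figure D2:**
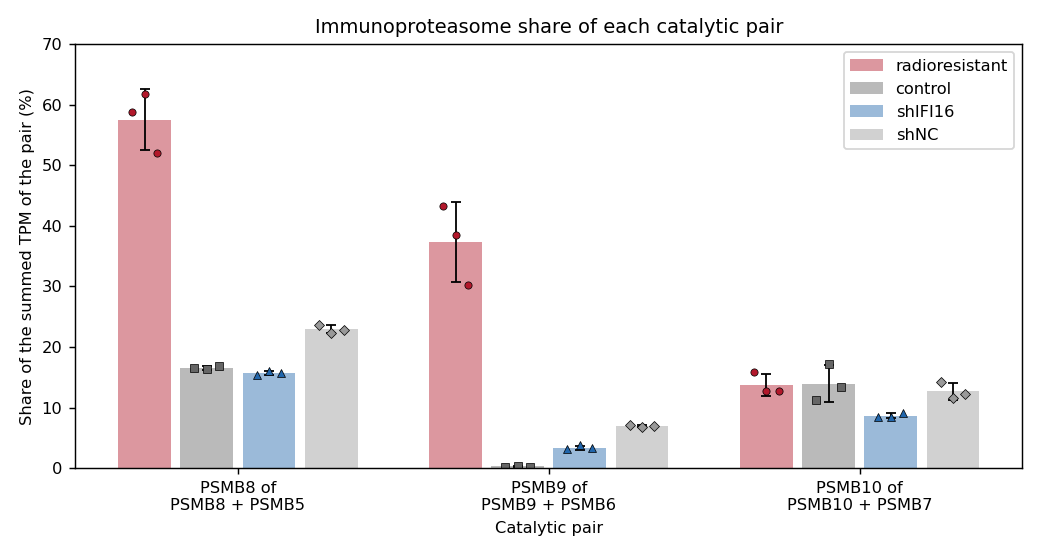
Share of the inducible subunit in the summed TPM of each catalytic pair, in percent; bars are group means, error bars are SD (n = 3) and points are libraries. The PSMB8 and PSMB9 shares are highest in radioresistant cells, and the PSMB10 share is alike in radioresistant (13.8%) and control (14.0%) cells.

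A gene was tested where 3 or more of the 6 libraries of a comparison reached 1 TPM, which 42 of the 44 members did. In radioresistant cells 14 members rose, against 16.9% of all genes tested, and 5 fell, against 27.0%; 23 did not pass an adjusted p of 0.05. In all, 45.24% of tested members changed in either direction, against 43.9% of genes. With the 5 immunoproteasome genes aside, 9 of 37 other members rose and 5 fell (37.84%), so the other members changed about as often as genes in general. Their median change was 0.11 and that of all genes tested -0.11. Groups did not overlap for 24 of 42 members, against 53.1% of genes. PSMA8, the alpha subunit of the testis, was listed at 0 in all 12 libraries, and PSMB11, the thymus subunit, never exceeded 0.105 TPM.

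The counts by class stand beside 16.9% of all genes tested that rose and 27.0% that fell, and each class holds few genes. By class, the alpha ring had 2 of 7 genes higher and none lower by limma (0 lower also at an unadjusted p under 0.05). These were PSMA2 (383 ± 27.8 TPM in radioresistant cells and 245 ± 21.8 TPM in control cells; 0.65) and PSMA5 (92.4 ± 3.49 TPM and 63.4 ± 3.64 TPM; 0.54). Of the 4 structural beta genes, PSMB3 rose by 0.29, while PSMB2 fell by 0.38 and PSMB1 fell by 0.30. The beta ring thus held genes moving both ways. In the 19S base, 3 of 6 ATPase genes rose, PSMC2 by 0.38, PSMC4 by 0.37 and PSMC5 by 0.32, and none fell (0 also at an unadjusted p under 0.05). Of the 14 PSMD genes, PSMD3 rose by 0.41, while PSMD10, also known as the oncoprotein gankyrin, fell by 0.49 and PSMD6 fell by 0.48. PSMF1, an inhibitor of the 20S core, was at 58.6 ± 0.391 TPM in radioresistant cells and 47.1 ± 1.02 TPM in control cells, a rise of 0.31. The other activators did not pass: PSME3, the nuclear PA28 subunit, changed by 0.09 (95% interval -0.16 to 0.34) and PSME4, which encodes PA200, by -0.31 (-0.64 to 0.02); without control replicate 3, PSME4 passed (-0.45, adjusted p = 0.00446, limma).

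The calls of PSMA2, PSMA5, PSMB7, PSMC4, PSMB6, PSMD6 and PSMD10 were kept when any 1 library was left out. PSMB1 (highest adjusted p = 0.174) and PSMF1 (0.111) lost the call without any library other than control replicate 3, and PSMB3 (0.193) without any radioresistant library or control replicate 2, by limma. PSMC5 (0.166) and PSMD3 (0.0849) lost it without radioresistant replicate 1 or 3 or control replicate 1 or 2. PSMB2 (0.0666) lost it without radioresistant replicate 1 or control replicate 2, and PSMC2 (0.0601) without radioresistant replicate 2 or control replicate 2. Leaving out control replicate 3 cost no call and gave 23 members called. Without radioresistant replicate 1 or without control replicate 2, 12 members were called, against 19 with all libraries. Without them, 3 of the other members fell, against 5, and 5 (without radioresistant replicate 1) and 4 (without control replicate 2) rose, against 9. Without radioresistant replicate 3, 5 of the other members rose. Calls over all genes moved as well: leaving out 1 library gave 1494 to 2743 genes higher and 2237 to 4395 lower. With all libraries, 2220 genes were higher and 3542 lower. With median-ratio scaling, which moves the median of all genes tested to 0.01, 15 of the other members rose. Of the genes called, 50.59% were higher with this scaling, against 38.53% as deposited. Those percents are of genes called, not of all genes tested, so the 15 members cannot be set against them.

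**Figure D3:**
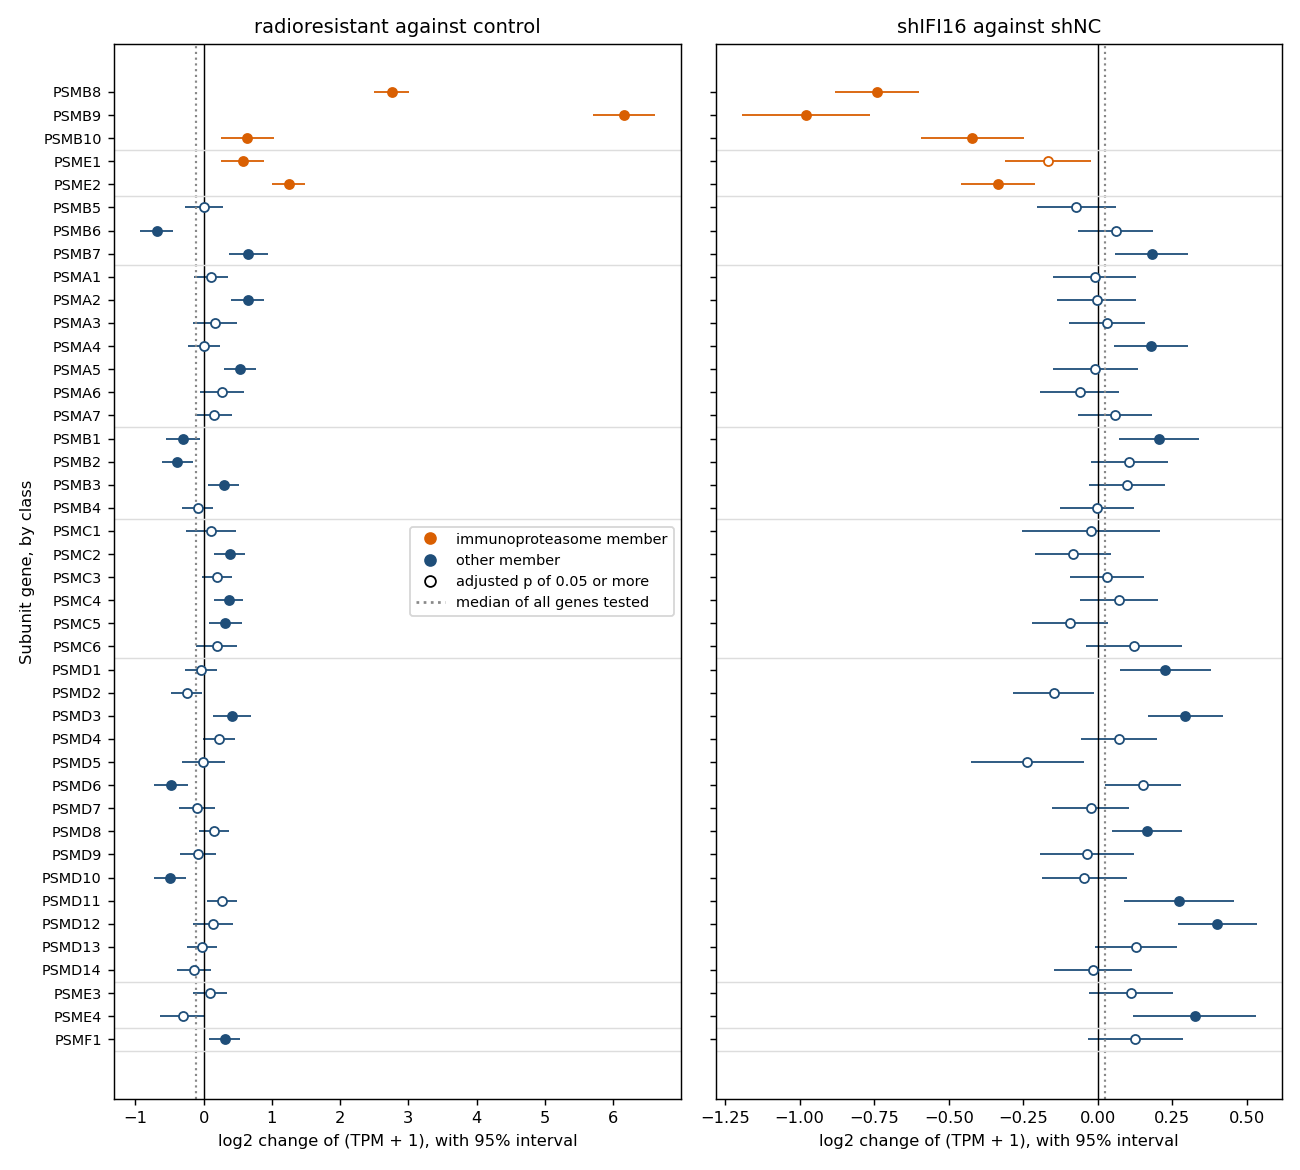
Change of the 42 tested proteasome genes in radioresistant against control cells (left) and shIFI16 against shNC cells (right), as log2 of (TPM + 1) with 95% intervals from limma, by class; the panels have different scales. Filled points passed an adjusted p of 0.05 and the dotted line is the median of all genes tested; the immunoproteasome genes lie right of 0 on the left and left of 0 on the right.

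In radioresistant cells with shIFI16, 4 of the 5 immunoproteasome genes fell relative to shNC, where 16.3% of all genes tested fell. PSMB9 was at 14.9, 19.6 and 15.9 TPM in shIFI16 libraries, against 33.2, 33.4 and 35.1 TPM in shNC libraries, and fell by 0.98 (SE 0.10, limma, adjusted p = 2.37e-06). PSMB8 was at 57.2, 58.0 and 59.9 TPM in shIFI16 libraries, against 94.8, 101 and 99.3 TPM in shNC libraries, and fell by 0.74 (SE 0.07, adjusted p = 5.28e-07). Both genes were without overlap between the groups. PSMB10 was at 48.6, 50.4 and 53.3 TPM in shIFI16 libraries and 74.7, 61.9 and 68.7 TPM in shNC libraries, and fell by 0.42 (SE 0.08, adjusted p = 0.000896). PSME2 was at 305, 315 and 319 TPM in shIFI16 libraries and 379, 396 and 411 TPM in shNC libraries, and fell by 0.33 (SE 0.06, adjusted p = 0.000364). PSME1 was at 132, 124 and 145 TPM in shIFI16 libraries and 143, 153 and 153 TPM in shNC libraries, where the groups overlapped and the change of -0.17 did not pass (95% interval -0.31 to -0.02, adjusted p = 0.0731; 0.0163 without shIFI16 replicate 3). PSMB8-AS1 fell by 0.48 (adjusted p = 0.0344), with overlapping levels of 3.46 to 6.28 TPM in shIFI16 libraries and 5.98 to 6.88 TPM in shNC libraries. CD68, the only 1 of 9 immune markers high enough to test, fell beside them by 1.25. It was at 15.6 TPM in shIFI16 and 38.5 TPM in shNC cells, and its part in the result was not tested. Of 6 glioma and astrocyte markers tested with shIFI16, 3 rose and 2 fell, against 16.6% and 16.3% of all genes. GFAP rose by 3.56, at 31.1 TPM in shIFI16 and 1.73 TPM in shNC cells, FABP7 by 0.45 and SOX2 by 0.17, while VIM fell by 0.49 and NES by 0.38. The summed level of the 7 markers was 5493 to 6416 TPM in shIFI16 and 7360 to 7978 TPM in shNC libraries, and their part in the result was not tested either.

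The inducible shares were lower as well. PSMB8 was 15.7 ± 0.318% of its pair in shIFI16 cells and 23 ± 0.668% in shNC cells (SD, n = 3 each), PSMB9 was 3.42 ± 0.333% and 6.95 ± 0.187%, and PSMB10 was 8.68 ± 0.372% and 12.7 ± 1.40%. All 3 shares were lower in every shIFI16 library than in every shNC library. The 3 inducible genes were 8.51, 8.68 and 8.91% of the TPM of the 6 catalytic genes in shIFI16 libraries and 14.6, 13.2 and 13.6% in shNC libraries. The tables were normalized separately, so levels across them were not tested; PSMB9 averaged 185 TPM in radioresistant cells without a hairpin and 33.9 TPM in those with shNC. PSMB8 averaged 335 TPM without a hairpin and 98.2 TPM with shNC, and both groups carry the label of radioresistance.

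Over all members, 4 fell with shIFI16, against 16.3% of all genes tested, and 9 rose, against 16.6%; 29 of 42 did not pass. The 30.95% of tested members that changed compares with 32.9% of genes, and groups did not overlap for 15 of 42 members, against 44.8% of genes. The 4 that fell were the immunoproteasome genes named above, and the 9 that rose were all other members. No other member fell by limma, although PSMD2 and PSMD5 had an unadjusted p under 0.05 (2 of 37). Of the 9 that rose, PSMD12 had the highest change: it was at 180, 174 and 168 TPM in shIFI16 libraries and 129, 138 and 128 TPM in shNC libraries (0.40, SE 0.06, adjusted p = 0.000128). PSMD3 was at 304, 313 and 292 TPM in shIFI16 libraries and 259, 240 and 243 TPM in shNC libraries (0.29, SE 0.06, adjusted p = 0.00132). Both encode subunits of the 19S lid, outside the catalytic core, and the groups overlapped for neither. PSMD11 (0.27, with overlapping groups), PSMD1 (0.23) and PSMD8 (0.16) rose as well, so that 5 of 14 PSMD genes were higher, while 0 of 6 ATPase genes passed in either direction (0 at an unadjusted p under 0.05).

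PSME4 rose by 0.33 with shIFI16, PSMB1 by 0.20, and PSMB7 and PSMA4 by 0.18 each. PSMB5 (-0.07), PSMB6 (0.06), PSME3 (0.11) and PSMF1 (0.13) did not pass, and PSMC2 changed by -0.08 (95% interval -0.21 to 0.04), with groups overlapping in all 5. The rises of the other members were small, and leaving out 1 library removed many. PSMD12 and PSMD3 kept their calls in every case. PSMD8 (highest adjusted p = 0.168) lost its call without shIFI16 replicate 2 or any shNC library, and PSMD11 (0.0955) without shIFI16 replicate 1 or 2 or shNC replicate 2 or 3, by limma. PSMA4 (0.123) lost it without shIFI16 replicate 2 or shNC replicate 1 or 3, PSMB7 (0.116) without shIFI16 replicate 2 or shNC replicate 1 or 2, and PSMD1 (0.125) without shIFI16 replicate 1 or 2 or shNC replicate 3. PSMB1 (0.092) lost it without shIFI16 replicate 3 or shNC replicate 1, and PSME4 (0.0892) without shIFI16 replicate 1 or shNC replicate 3. Without shIFI16 replicate 2 or without shNC replicate 3, 8 members were called and 4 of the other members rose, and without shNC replicate 1, 5 rose. Without shIFI16 replicate 1, 2 of the other members fell. Calls over all genes moved as well: leaving out 1 library gave 1318 to 2310 genes higher and 1565 to 2307 lower. With all libraries, 2088 genes were higher and 2052 lower.

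Across both comparisons, which share no libraries, 4 members were higher in radioresistant cells and lower with shIFI16, and all 4 are immunoproteasome genes (PSMB8, PSMB9, PSMB10 and PSME2). Another 2, PSMB7 and PSMD3, were higher in both. PSMB1 was lower in radioresistant cells and higher with shIFI16, and 17 tested members passed in neither comparison. The share of all genes with each of these joint patterns was not counted. In the single comparisons, 16.9% of all genes tested were higher in radioresistant cells and 16.3% were lower with shIFI16. Over the 37 other members the changes in the comparisons had a Pearson r of 0.017 and a Spearman rho of 0.041, a description across genes, which are not independent replicates. The summed TPM of the immunoproteasome genes was 1334 ± 161 in radioresistant, 477 ± 35.4 in control, 573 ± 18.3 in shIFI16 and 746 ± 21.5 in shNC cells. The other members summed to 10527 ± 179 in radioresistant, 10090 ± 377 in control, 11359 ± 127 in shIFI16 and 10913 ± 365 in shNC cells.

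**Figure D4:**
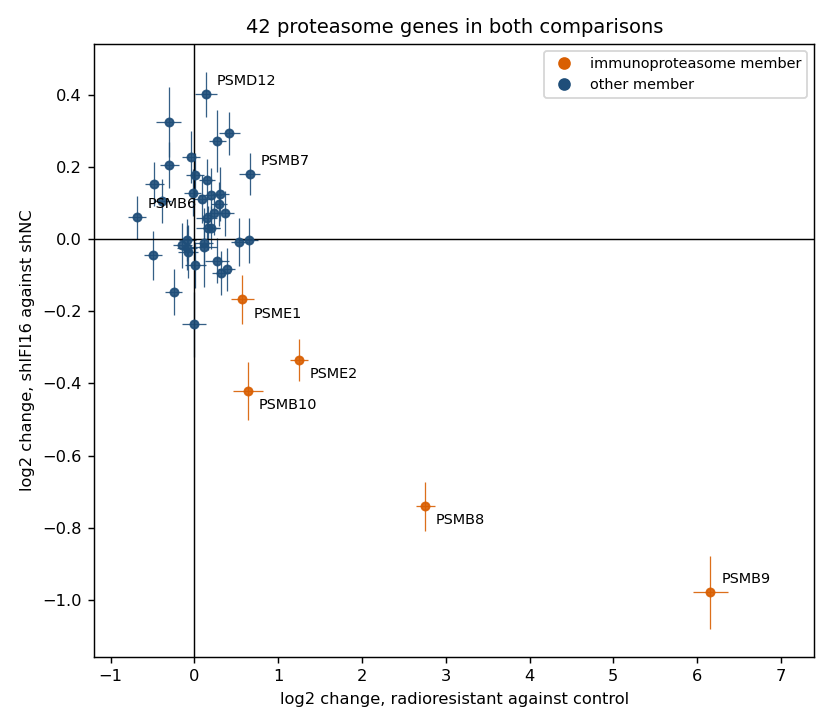
Change of each of the 42 tested proteasome genes in shIFI16 against shNC cells (vertical) plotted against its change in radioresistant against control cells (horizontal), in log2 of (TPM + 1) with standard errors. The 5 immunoproteasome genes lie below and to the right of 0, and the 37 others form a cloud around 0 with no slope (r = 0.017).

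Of 9 assembly chaperone genes 4 rose in radioresistant cells, against 16.9% of all genes tested, and 1 fell, against 27.0%. POMP, the chaperone needed to mature both kinds of core, was at 225, 238 and 235 TPM in radioresistant libraries and 137, 122 and 145 TPM in control libraries (0.79, limma, adjusted p = 0.000207). PSMG3 and PSMG4, partners in building the alpha ring, rose by 0.60 each and PSMG1 rose by 0.46, and PSMD10, itself a chaperone of the 19S base, is the 1 that fell. With shIFI16 only PSMG1 of these 9 passed (11.11%, against 32.9% of all genes tested), with a rise of 0.36 (limma, adjusted p = 0.000289). POMP changed by 0.09 with shIFI16 (adjusted p = 0.319). Of 8 other subunits and bound factors, 25.0% changed in radioresistant cells, against 43.9% of all genes tested, and 12.5% with shIFI16, against 32.9%. The ubiquitin receptor gene ADRM1 rose by 0.38 in radioresistant cells and ZFAND5, a proteasome-binding stress gene, fell by 1.09. The deubiquitinase gene UCHL5 rose by 0.25 with shIFI16.

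NFE2L1 encodes the transcription factor known to raise proteasome genes when the proteasome is impaired. It was at 168 ± 7.24 TPM in radioresistant cells and 187 ± 12.7 TPM in control cells and did not pass (-0.16, limma, adjusted p = 0.244), and it rose by 0.19 with shIFI16 (adjusted p = 0.0476). Of the 6 regulators listed, itself included, none rose in radioresistant cells (0 at an unadjusted p under 0.05), against 16.9% of all genes tested. VCP (-0.41) and FOXO4 (-0.73) fell, where 27.0% of all genes fell. NFE2L2 (-0.39), NGLY1 (-0.31) and DDI2 (0.19) did not pass. With shIFI16, DDI2, the protease that cleaves the NFE2L1 protein, rose by 0.36, and NFE2L2 (0.06), NGLY1 (0.13), VCP (0.11) and FOXO4 (0.28) did not pass. Of the 6 changes, 5 were negative in radioresistant cells and 6 positive with shIFI16, most of them short of the threshold. The median change of all genes tested was itself negative in radioresistant cells (-0.11) and positive with shIFI16 (0.02).

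Interferon signalling holds kinases (JAK1 and JAK2) and the transcription regulators they lead to. Of 9 such genes tested, 5 rose in radioresistant cells, against 16.9% of all genes, and 1 fell, against 27.0%. NLRC5, the class I transactivator, was at 29.1, 27.9 and 20.4 TPM in radioresistant libraries and 3.66, 3.93 and 4.04 TPM in control libraries (2.44, limma, adjusted p = 1.07e-06). IRF9 rose by 1.34, IRF1 by 1.23 and STAT2 by 0.79, and STAT3 fell by 0.35. With shIFI16, 6 fell, against 16.3% of all genes, and STAT3 rose by 0.63. IRF1 was at 30.7, 29.3 and 29.3 TPM in shIFI16 libraries and 50.2, 47.4 and 46.6 TPM in shNC libraries, and fell by 0.67 (adjusted p = 8.1e-06). NLRC5 fell by 0.53, JAK2 by 0.43, IRF2 by 0.34, and IRF9 and STAT2 by 0.27 each.

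Downstream of the proteasome, 11 of 15 tested peptide loading genes rose in radioresistant cells and none fell (1, CALR, at an unadjusted p under 0.05), against 16.9% and 27.0% of all genes. With shIFI16, 9 fell, against 16.3% of all genes, and 1, the chaperone gene CANX, rose, against 16.6%. TAP1, the neighbour of PSMB9, was at 368, 314 and 287 TPM in radioresistant libraries and 14.4, 15.8 and 14.1 TPM in control libraries. With shIFI16 it was at 25.0, 24.1 and 19.9 TPM, against 39.0, 37.8 and 36.0 TPM with shNC (-0.69, limma, adjusted p = 4.34e-05). B2M, the class I light chain, fell by 0.71 with shIFI16 and HLA-B by 1.1; class I HLA genes have close copies, so their values are uncertain. Of 7 other cytosolic peptidases, LAP3, an interferon-inducible aminopeptidase, rose by 1.67 and THOP1 by 0.70 in radioresistant cells, while NPEPPS fell by 0.42 and LTA4H by 0.33. With shIFI16, NPEPPS rose by 0.38 and BLMH by 0.47, and LAP3 did not pass (0.11). Of the 7 peptidases, 57.14% changed in radioresistant cells, against 43.9% of all genes tested, and 28.57% with shIFI16, against 32.9%.

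Upstream of the proteasome, UBA7, the activating enzyme of the modifier ISG15, rose by 2.74 in radioresistant cells and fell by 1.05 with shIFI16. ISG15 itself rose by 4.94 in radioresistant cells and fell by 0.53 with shIFI16, and UBD, which encodes the modifier FAT10, averaged at most 0.366 TPM in a group. The activating enzymes of ubiquitin fell in radioresistant cells, UBA6 by 1.29 and UBA1 by 0.38. Of 6 tested ubiquitin shuttles only SQSTM1 rose in radioresistant cells (1.01), where 16.9% of all genes tested rose, and SQSTM1 fell by 0.24 with shIFI16. UBB rose by 0.20 with shIFI16.

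Open chromatin was compared as a description, since each condition had 1 ATAC-seq library. The authors deposited 12877 summits for radioresistant cells and 2454 for control cells, so the lists differ in size. A summit lay within 1000 bases of a start site in 17 of 39 members (43.6%) in the radioresistant library, against 19.1% of all promoter genes, and in 5 of 39 (12.8%) in the control library, against 3.57%. Among genes tested for expression, a background added after the data were seen, these shares were 45.9% of members against 38.1% of genes in the radioresistant library. In the control library they were 13.5% and 6.99%. The shares of members are thus nearer to those of expressed genes than to those of all genes.

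The 5 members with a control summit were PSMA1, PSMA5, PSMC4, PSMD5 and PSMD10, and each also had a radioresistant summit. PSMD10, which fell in radioresistant cells, had the highest radioresistant score of all members, 12.3 (-log10 q, the authors' value) at 92 bases before its start. Of the 5 immunoproteasome genes, 2 (PSMB8 and PSME2) had a summit in the radioresistant library, against 38.1% of genes tested for expression. None had one in the control library, against 6.99%. These counts are near the shares of genes tested for expression. The PSMB8 summit (score 5.98) lay 384 bases before 1 start site and 248 bases after the other, and the PSME2 summit (score 3.88) lay 150 bases before the start. PSMB10 had its nearest radioresistant summit at 1021 bases, just outside the window, PSMB9 at 9761 bases and PSME1 at 10566 bases. The median score of the radioresistant list was 4.08. With the 2454 highest-scoring summits of each library, 7 members and no immunoproteasome gene had a radioresistant summit, against the same 5 members in the control library. These were 17.9% of members in the radioresistant library, against 4.67% of all promoter genes, and 12.8% in the control library, against 3.57%.

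**Figure D5:**
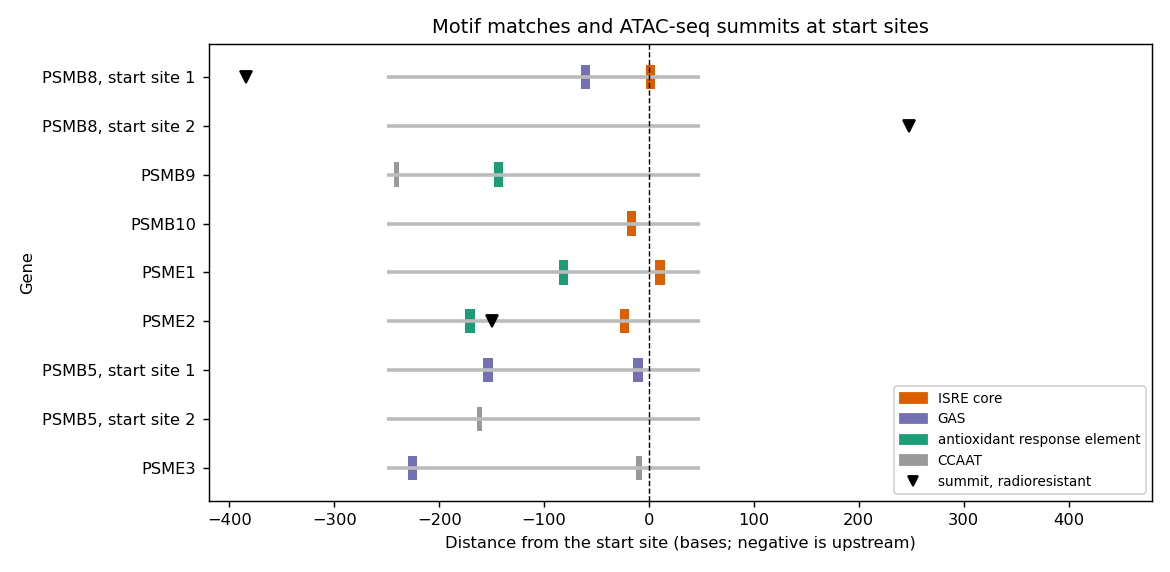
Motif matches (coloured blocks) in the promoter entries of the immunoproteasome genes, PSMB5 and PSME3, and ATAC-seq summits of the radioresistant library (triangles), by distance from the start site in bases; grey lines show the window searched and the dashed line the start. The response element core sits within 30 bases of a start in PSMB8, PSMB10, PSME1 and PSME2, and the summits of PSMB8 and PSME2 lie beyond it.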

How the data were processed

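Each of the 2 expression tables holds 24489 gene rows and 6 libraries, in TPM as the authors deposited them: every column sums to 1000000, although the authors name the tables counts. Per the submitters' processing notes, Trim Galore 0.6.6, TopHat, Cufflinks 2.2.1, featureCounts, Bowtie2 2.2.5, SAMtools 1.10, MACS2 2.1.4 and hg38 were used; which of them made the TPM values, and with which strand setting, is not given in the sources used here. The summit lists carry a -log10 q score for each summit as the authors deposited it, 1 list per library.

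Proteasome genes and all other lists were chosen with earlier results of these data known. The 28 rows whose gene names had turned into dates (0.115 to 0.190% of the values of a library) were left out. Each table was tested on its own, with genes at 1 TPM or more in at least 3 of 6 libraries, on log2(TPM + 1), by limma 3.58.1 in R 4.3.3 with a mean-variance trend and robust variances, without a replicate block; p-values were adjusted over all genes tested and the threshold was 0.05. The method was tested on simulated data. Genes named in the text are the members, the listed pathway genes and the markers; some listed genes are not reported here. Motifs were searched in the RefSeq promoter entries on both strands, and a summit was counted within 1000 bases of a start site. Alternatives were other filters, scalings, pseudocounts and variance models, a replicate block, leaving out each library, and other summit windows and scores. TPM keeps no depth, so no counting interval is given.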

Additional observations from a re-analysis of the deposited data

How the results depend on the processing

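PSMB8, PSMB9 and PSME2 passed in both comparisons, with the same directions, under all alternatives tried; so did PSME1, PSMA2, PSMA5, PSMB6, PSMB7, PSMC4, PSMD6 and PSMD10 in radioresistant against control cells, and PSMB10, PSMD3 and PSMD12 in shIFI16 against shNC cells. Of the single-gene values recomputed in radioresistant against control cells, 266 kept direction and side of the threshold, 37 lost their call, 1 gained one and 4 changed sign, all of these of PSMB5: its change was 0.01, and leaving out 1 library gave -0.081 (without radioresistant replicate 3) to 0.126, with -0.02 without radioresistant replicate 1, control replicate 2 or control replicate 3. For shIFI16 against shNC, 270 kept, 36 lost and 2 gained a call, the gains being PSME1 without shIFI16 replicate 3 and with the replicate block (adjusted p = 0.021). With median-ratio scaling, 15 of the other members rose in radioresistant cells, beside a shift of all genes tested (median 0.01, against -0.11 as deposited). For shIFI16 against shNC, 5 members rose with no filter and 5 with median-ratio scaling, all of them other members, and 2 rose, of 6 called, without trend and robust variances. No other member fell in the main analysis, but 1 did at a filter of 5 TPM, 1 when scaled by median ratios and 1 when quantile normalized. The cause was not tested.

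Deviations of same-numbered libraries had correlations of mixed sign for radioresistant and control (-0.377, 0.245 and 0.0817). For shIFI16 and shNC they were all positive but low (0.216, 0.0882 and 0.0277), against -0.231 to 0.148 for different numbers. Not every library correlated best with its own number, and whether same-numbered libraries belong together is not settled by these values. With the number as a replicate block, 5572 genes and 16 members were called in radioresistant cells, against 5762 genes without it. With shIFI16 the block gave 5610 genes, against 4140 without it, and 17 members, of which 7 fell, 2 of them other members. Leaving out 1 library gave, in radioresistant against control cells, 3875 to 7138 genes called (2237 to 4395 lower), 12 to 23 members called, 9 to 16 higher and 3 to 7 lower, with 4 to 11 other members higher and 3 to 7 lower. For shIFI16 against shNC it gave 1318 to 2310 genes higher, 8 to 13 members called, 4 to 8 higher, all other members, and 0 to 2 other members lower. Taken from TPM + 1, the PSMB9 share in control cells was 0.518% in place of 0.317%. With a summit score of at least 10, 1 member (2.56%) had a summit in the radioresistant library, against 1.13% of all promoter genes. In the control library 0 had one, against 0.0256%. With equal numbers of summits 7 members (17.9%) had one in the radioresistant library, against 4.67% of all promoter genes. The genes of the other lists were not refitted under the alternatives.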
